A study of Mus musculus with 12 samples.

Results

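The endoplasmic reticulum (ER) chaperone and unfolded protein response module holds genes that fold secreted and membrane proteins, clear those that misfold, and sense the load of unfolded protein. It was given as a list of 33 gene symbols, matched by name to the rows of the deposited count table. No measured value entered the matching, although the members were chosen with earlier results of these data known. Of the 33 symbols, 32 matched a row among the 46403 genes of the table, and all 32 passed the expression filter that left 23742 genes to test. The remaining member, Selenos, matched no row under that name but 1 row under its older symbol Vimp, and it is described apart from the 32.

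Polyadenylated RNA from the whole right kidney of untreated mice was sequenced in 12 libraries of 3 genotypes. Grhl2KO_Myc kidneys (n = 4) are labelled as Grhl2 knockout with Myc overexpression and came from a cross of HoxB7-Cre; Grhl2flox/+ mice with R26StopFLMYC; Grhl2flox/flox mice. This Cre works in the ureteric bud and its later collecting duct, so that most other kidney cells keep Grhl2 and a silent MYC transgene. Myc kidneys (n = 3) are labelled as Myc overexpression, without a stated cross or Grhl2 genotype in the sources used here, although their library identifiers hold the letters HET. Wildtype kidneys (n = 5) carried the R26StopFLMYC transgene, silent without Cre, and floxed Grhl2 on both chromosomes. The sources used here give neither the age of the mice nor whether each library is a mouse of its own, so the spread behind each p-value is that between these samples and may be technical. The title of the series concerns the influence of Grhl2, an epithelial transcription factor gene, on cyst growth.

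Proteins that enter the secretory pathway fold in the ER lumen with the help of Hsp70 and Hsp90 chaperones, lectin chaperones and enzymes that form disulfide bonds. When unfolded protein builds up, 3 membrane sensors respond. ATF6 is cut to release a transcription factor, IRE1 (encoded by Ern1) splices the Xbp1 messenger RNA so that it encodes a transcription factor, and PERK slows translation. ATF6 and XBP1 act on a promoter sequence called the ER stress response element (ERSE), found upstream of many chaperone genes. The transporting epithelia of the kidney make large amounts of membrane protein and rely on this machinery. In a whole organ, fewer cells of a type and less RNA per cell cannot be told apart.

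The ERSE is shown first because it is the sequence through which many members are known to be switched on together. The 19-base pattern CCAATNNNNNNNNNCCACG was searched on both strands from 250 bases before to 50 bases after the start of each gene in RefSeq (assembly GRCm38.p6, the same build as mm10). Such windows were in the reference for 27 of the 33 members. Hyou1, Hspa13, Manf, Atf6, Derl1 and Sec61a1 had none. The pattern was found for 9 of the 27 members (33.3%), against 37 of 27025 genes in all (0.137%), which include the 9. As the element is already known upstream of many chaperone genes, this difference is not a result about the members in these data. The related 11-base pattern ERSE-II, ATTGG and CCACG with any 1 base between them, was found for 1 member, Herpud1 (3.7%), against 12 of all genes (0.0444%). The matches are written below in the orientation of the pattern, with the fixed letters in capitals.
Hspa5: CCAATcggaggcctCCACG
Hsp90b1, distal site: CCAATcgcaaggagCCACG
Hsp90b1, proximal site: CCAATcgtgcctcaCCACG
Calr: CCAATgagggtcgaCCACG
Canx: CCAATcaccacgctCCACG
Creld2: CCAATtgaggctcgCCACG
Dnajc3: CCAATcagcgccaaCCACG
Pdia6: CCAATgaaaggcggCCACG
Syvn1: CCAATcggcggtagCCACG
Derl3: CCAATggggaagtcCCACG
Herpud1, ERSE-II: ATTGGgCCACG

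The matches differ in the 9 bases between the fixed letters, and they lie between -212 and -26 relative to the start of the gene. The site of Hspa5 is at chr2:34772025-34772043, from -65 to -47, and Hsp90b1 has a pair of sites, from -212 to -194 and from -107 to -89. By role, the ERSE was found for 5 of 6 luminal chaperones with a window, 1 of 3 J proteins, 1 of 5 disulfide exchange enzymes, 0 of 3 sensors and transcription factors, 2 of 9 degradation genes and 0 of 1 translocon genes. The whole upstream window is shown for Calr, the member with the widest gap between wildtype libraries among those with an ERSE, and for Creld2 and Herpud1, which stand for a chaperone with an ERSE and for the ERSE-II. Each is written 5′ to 3′ on the strand of the gene and holds no base of the annotated gene. Those of Calr and Creld2 stop where that gene begins. The stretch of Herpud1 stops at its RefSeq start, a few bases before the annotated gene. Capitals mark the fixed letters of the match, which for Calr and Creld2 is on the opposite strand and therefore reads as its reverse complement.
Calr, chr8:84846935-84847181, minus strand: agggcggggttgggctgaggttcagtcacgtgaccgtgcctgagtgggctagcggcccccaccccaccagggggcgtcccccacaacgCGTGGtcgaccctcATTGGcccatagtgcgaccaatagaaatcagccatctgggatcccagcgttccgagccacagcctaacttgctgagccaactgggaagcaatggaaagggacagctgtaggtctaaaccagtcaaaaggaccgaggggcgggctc
Creld2, chr15:88819396-88819645, plus strand: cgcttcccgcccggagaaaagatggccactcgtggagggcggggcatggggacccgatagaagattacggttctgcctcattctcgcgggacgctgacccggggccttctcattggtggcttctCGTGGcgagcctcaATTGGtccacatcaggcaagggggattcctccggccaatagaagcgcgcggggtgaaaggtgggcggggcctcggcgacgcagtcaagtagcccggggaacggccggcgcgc
Herpud1, chr8:94386179-94386428, plus strand: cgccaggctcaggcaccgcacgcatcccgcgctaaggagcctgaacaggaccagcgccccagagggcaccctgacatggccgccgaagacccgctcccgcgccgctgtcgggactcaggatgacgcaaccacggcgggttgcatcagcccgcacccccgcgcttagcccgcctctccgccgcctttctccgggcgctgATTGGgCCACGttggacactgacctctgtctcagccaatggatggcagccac

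Other patterns were searched in the same windows and on both strands. The core TGACGTGG of the unfolded protein response element, bound by XBP1 and ATF6, was found for 0 of the 27 members and for 0.714% of all genes. The E-box CACGTG, known as a binding sequence of MYC, was found for 5 of the 27 members (18.5%), namely Calr, Dnajb9, Atf6b, Derl3 and Selenos, and for 8.09% of all genes. The core AACCGGTT of grainyhead factors was found for 0 members and 0.174% of all genes. No match of 1 pattern overlapped a match of another in the members. These matches describe letters in a window and do not show that a factor binds there. Only exact matches of the fixed letters were counted, so a site with a changed letter or outside the window is missed.

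Total counts per library lay between 75187006 and 108164810 in Grhl2KO_Myc, between 70608817 and 101043826 in Myc and between 52973520 and 98713157 in wildtype. The unit of level is CPM, in which each count is divided by its TMM-scaled library total. Grhl2 itself was at 18.5, 19, 24.3 and 22.3 CPM in Grhl2KO_Myc, at 28.5, 33 and 28.2 CPM in Myc and at 29.2, 24.9, 25.6, 23.9 and 25.2 CPM in wildtype. Counts at the Myc gene overlapped among the groups, at 30.5, 27, 32.2 and 30.9 CPM in Grhl2KO_Myc, at 24, 19.1 and 27.6 CPM in Myc and at 29.3, 21.3, 19.8, 34.4 and 28.7 CPM in wildtype. All 20 proximal tubule markers examined passed the expression filter. Their summed level was low in 3 libraries, at 1690 CPM in Grhl2KO_Myc 3, 1770 CPM in Grhl2KO_Myc 4 and 1530 CPM in wildtype 4, against 3520 to 5990 CPM in the other 9. Genes at which ribosomal RNA reads are often counted took 5.55% of counts in Myc 1 and 0.16% to 0.581% in the others. Y-linked Ddx3y was above 10 CPM in 4 libraries, Grhl2KO_Myc 1 and 4, Myc 3 and wildtype 5. A gene was called when its adjusted p in edgeR's quasi-likelihood test, with Benjamini-Hochberg adjustment over all 23742 genes, was under 0.05.

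The 32 members ranged widely in level. Per kilobase of exon, the disulfide isomerase gene P4hb stood highest in wildtype at 226 CPM per kilobase, followed by Calr at 192, Hsp90b1 at 186, Pdia3 at 157 and Hspa5 at 130 CPM per kilobase. Xbp1 was at 35.1 CPM per kilobase, while the sensors Atf6 and Ern1 were at 4.71 and 2.89 CPM per kilobase. Derl3, a degradation gene known to be strong in secretory cells such as those of the pancreas, was lowest at 0.943 CPM per kilobase, with 65 to 167 counts per library. The members together made up 5798, 5823, 5701 and 6068 CPM in Grhl2KO_Myc 1 to 4, 5556, 5372 and 5725 CPM in Myc 1 to 3, and 5422, 5934, 5889, 4464 and 5849 CPM in wildtype 1 to 5. Wildtype 4 was the lowest of the 12 in that sum, and the other wildtype libraries spanned the range of the remaining groups except Grhl2KO_Myc 4 and Myc 2.

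**Figure D1:**
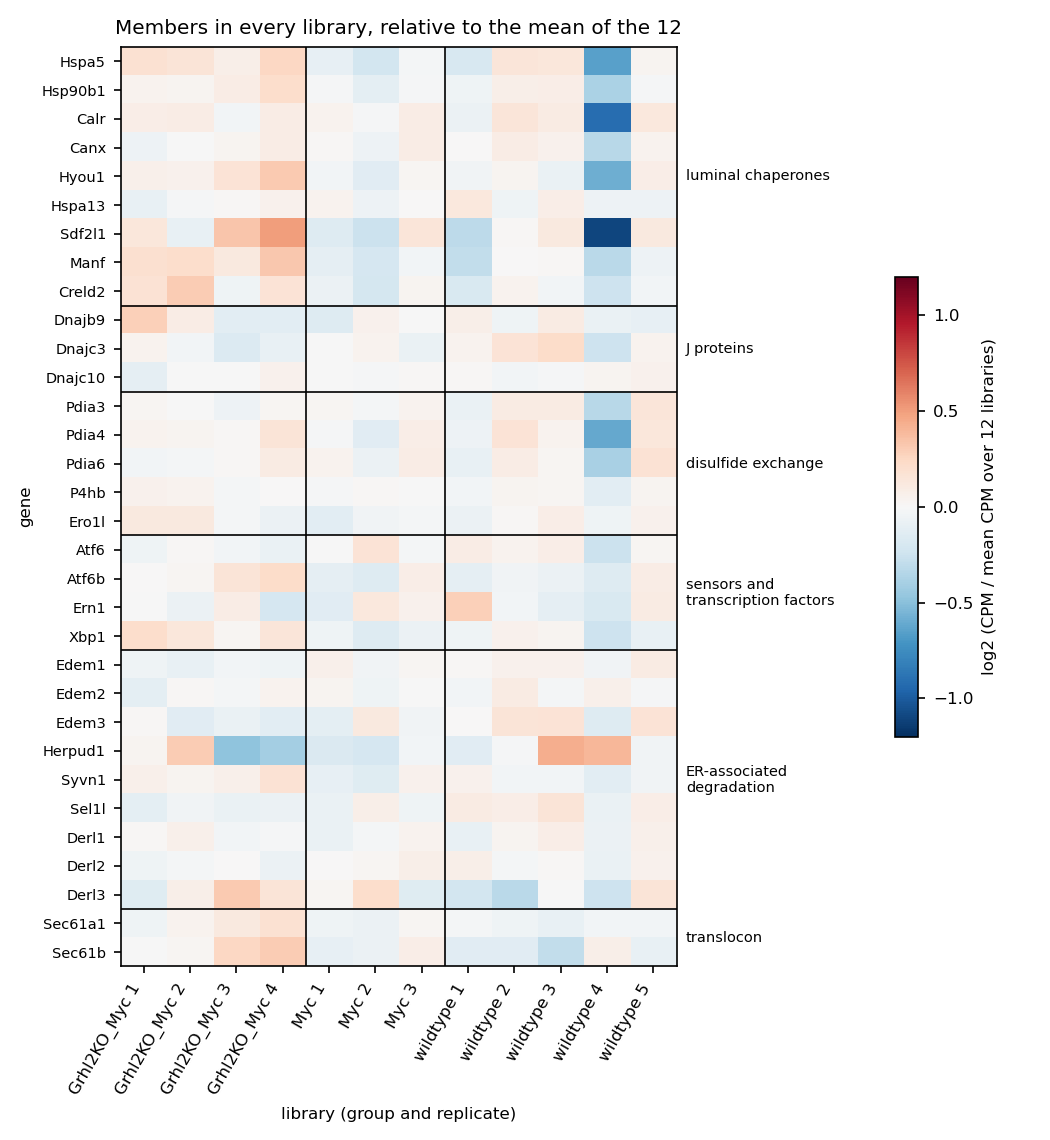
Level of the 32 members (rows, grouped by role) in each of the 12 libraries (columns, by group), as log2 of CPM over the mean CPM of the 12 libraries, red above and blue below that mean. Wildtype 4 is blue across the luminal chaperones and most disulfide exchange genes, with Sdf2l1 at 4.41 CPM and Calr at 309 CPM, and Herpud1 differs among libraries of the same group.

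The first comparison set Grhl2KO_Myc against wildtype kidneys, so that the labels give the knockout and the overexpression as the differences. Manf, which encodes a small secreted ER protein that binds the chaperone BiP and is induced under ER stress, rose 1.26-fold and was the 1 member called. The other luminal chaperones apart from Hspa13 also had fold changes above 0 without passing the test, while the degradation genes lay on either side of 0. Of the 32 members, 1 was called higher and 0 lower, or 3.12%, where 6.67% of all genes tested were called, 4.06% higher and 2.61% lower. At an unadjusted p under 0.05 there were 10 members (31.2%), 8 higher and 2 lower, against 22% of all genes. The members' median log2 fold change was 0.036, with 21 of 32 above 0, and that of all genes was -0.0074. The members' share was thus below that of all genes at the adjusted threshold and above it at the unadjusted one, and with 32 members either share rests on few genes.

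Manf (ENSMUSG00000032575.16, chromosome 9, 106838312 to 106891979, minus strand, mm10) was at 63.7, 64.2, 60.2 and 69.7 CPM in Grhl2KO_Myc 1 to 4, at 51.7, 48.2 and 54.4 CPM in Myc 1 to 3, and at 45.2, 55.9, 56.1, 44.4 and 53.4 CPM in wildtype 1 to 5. Every Grhl2KO_Myc library lay above every library of the other groups. Manf was the 1 member for which Grhl2KO_Myc and wildtype did not overlap, where 9.47% of all genes did not overlap, 5.67% above and 3.81% below. The mean was 64.5 ± 3.93 CPM in Grhl2KO_Myc (SD, n = 4) and 51 ± 5.79 CPM in wildtype (SD, n = 5), and the log2 fold change was 0.34 with an SE of 0.08 (edgeR adjusted p = 0.0267). The call was lost without Grhl2KO_Myc 1 (edgeR adjusted p = 0.0529), Grhl2KO_Myc 2 (0.0531), Grhl2KO_Myc 4 (0.0854) or wildtype 1 (0.0605), and over 23 alternatives the adjusted p lay between 0.00291 and 0.0854. Exons of Manf overlap those of 4930524O07Rik, Dcaf1 and Rbm15b by at most 166 bases, and the kit does not mark strand, so its count may hold some reads of those genes.

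Among the luminal chaperones, Hspa5 encodes BiP, the Hsp70 of the ER and the protein that holds the sensors inactive. Hspa5 was at 658, 646, 610 and 689 CPM in Grhl2KO_Myc, at 543, 498 and 571 CPM in Myc and at 508, 641, 636, 369 and 592 CPM in wildtype. Grhl2KO_Myc and wildtype overlapped, since wildtype 2 and 3 exceeded Grhl2KO_Myc 3 and wildtype 4 was far below the rest (log2 fold change 0.25, SE 0.13, edgeR adjusted p = 0.311). Without wildtype 4 the log2 fold change was 0.13 (edgeR adjusted p = 0.279). Hsp90b1, which encodes the ER Hsp90 called GRP94, was at 800, 794, 826 and 897 CPM in Grhl2KO_Myc, at 769, 714 and 768 CPM in Myc and at 752, 816, 820, 596 and 771 CPM in wildtype. Its groups overlapped too (0.14, SE 0.088, edgeR adjusted p = 0.373), and without wildtype 4 the log2 fold change was 0.071 (edgeR adjusted p = 0.435). Its exons overlap 1810014B01Rik and other models by up to 415 bases.

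Hyou1, an Hsp110-like partner of BiP that exchanges its nucleotide, was at 156, 155, 168 and 186 CPM in Grhl2KO_Myc, at 147, 136 and 152 CPM in Myc and at 146, 153, 142, 100 and 158 CPM in wildtype. Only wildtype 5 exceeded the lowest Grhl2KO_Myc libraries. Sdf2l1, which works with BiP and ER J proteins, was at 10.4, 8.89, 11.9 and 13.4 CPM in Grhl2KO_Myc, at 8.5, 7.94 and 10.5 CPM in Myc and at 7.62, 9.54, 10.3, 4.41 and 10.3 CPM in wildtype. It had the widest range of the 32 members over the 12 libraries, 3.03-fold. Creld2, a stress-induced ER protein, was at 38, 41.6, 32.5 and 37.7 CPM in Grhl2KO_Myc, at 32.1, 29.1 and 34.3 CPM in Myc and at 29.7, 34.6, 32.9, 28.3 and 32.8 CPM in wildtype. The groups overlapped through Grhl2KO_Myc 3 alone. These values were singled out after they were seen, and the log2 fold changes over wildtype were 0.25 for Hyou1 (edgeR adjusted p = 0.222), 0.4 for Sdf2l1 (0.304) and 0.24 for Creld2 (0.103).

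The calcium-binding lectin chaperones hold newly made glycoproteins in the ER. Calr, the luminal lectin calreticulin, was at 615, 620, 569 and 619 CPM in Grhl2KO_Myc, at 598, 576 and 619 CPM in Myc and at 554, 645, 622, 309 and 634 CPM in wildtype. Canx, its membrane-bound relative calnexin, was at 409, 427, 437 and 454 CPM in Grhl2KO_Myc, at 431, 410 and 455 CPM in Myc and at 428, 455, 444, 340 and 441 CPM in wildtype. For both genes the groups overlapped and wildtype 4 alone stood apart below. Hspa13, a microsomal Hsp70 relative, stayed between 51.3 and 59.4 CPM in all 12 libraries. The 9 luminal chaperones had a median log2 fold change of 0.24 with 8 above 0, and 0.13 with 6 above 0 without wildtype 4. Without wildtype 4 and the Grhl2KO_Myc libraries 3 and 4, which share its low proximal tubule level, that median was 0.024.

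**Figure D2:**
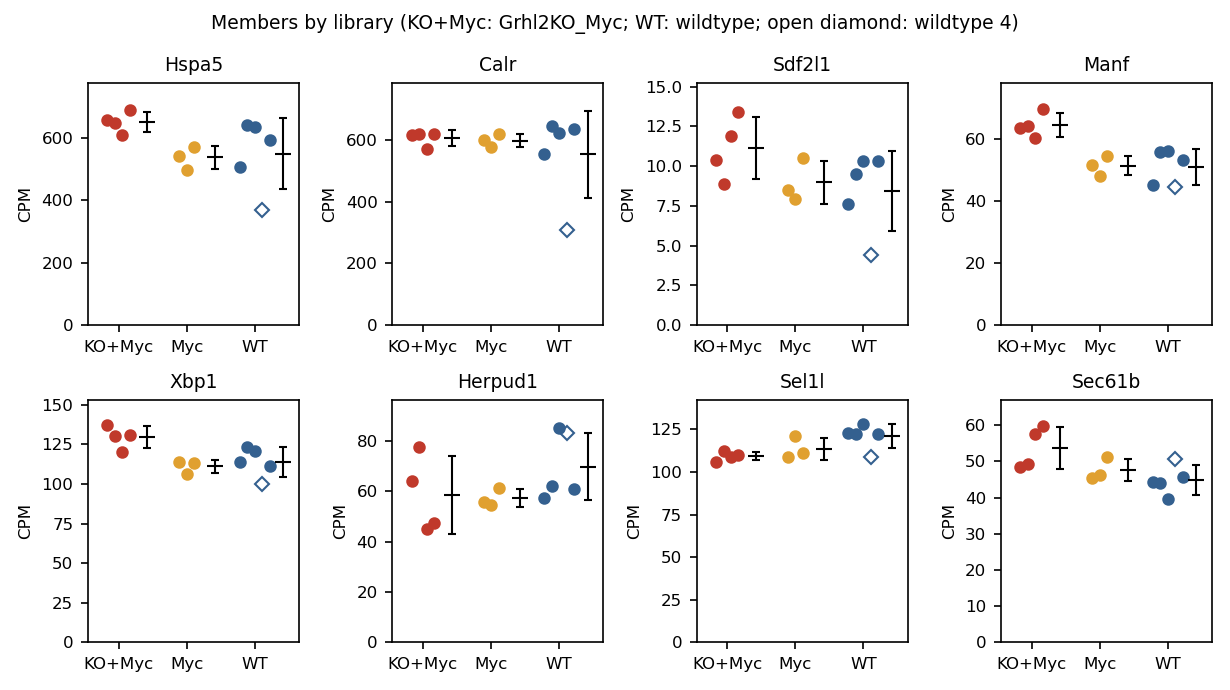
CPM (vertical axes, from 0) of 8 members in each library, with Grhl2KO_Myc in red, Myc in yellow and wildtype in blue; black bars show mean ± SD and the open diamond is wildtype 4. All 4 Grhl2KO_Myc points of Manf lie above every other point, the wildtype spread of Hspa5, Calr and Sdf2l1 rests on wildtype 4, and Sec61b and Herpud1 are not lowest in wildtype 4.

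The J proteins are cochaperones that stimulate the ATPase of BiP. Dnajb9, also called ERdj4, was at 33, 28.8, 24.9 and 24.8 CPM in Grhl2KO_Myc, at 24.3, 28.1 and 27.1 CPM in Myc and at 28.5, 26.1, 29, 25.6 and 25.3 CPM in wildtype. Its highest library was Grhl2KO_Myc 1, and the groups overlapped throughout. Dnajc3, which encodes the J protein p58IPK, lay between 91.2 and 105 CPM in Grhl2KO_Myc and between 85.7 and 119 CPM in wildtype. Dnajc10, a J protein with disulfide reductase activity, kept within 131 to 146 CPM in all 12 libraries. Of the 3 genes 0 were called by edgeR and 0 had an unadjusted p under 0.05, against 6.67% and 22% of all genes. Their median log2 fold change was -0.024.

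The disulfide exchange enzymes form and reshuffle bonds between cysteines, and Ero1l encodes the oxidase that recharges them. P4hb, protein disulfide isomerase itself, was at 677, 672, 643 and 656 CPM in Grhl2KO_Myc, at 650, 660 and 652 CPM in Myc and at 639, 670, 665, 599 and 669 CPM in wildtype. Pdia3, which acts on glycoproteins together with calnexin and calreticulin, averaged 494 ± 13.9 CPM in Grhl2KO_Myc and 493 ± 63.6 CPM in wildtype (SD, n = 4 and 5). Most of that wildtype spread was wildtype 4 at 393 CPM, since the other wildtype libraries lay between 467 and 548 CPM. Pdia4 was at 189, 188, 185 and 204 CPM in Grhl2KO_Myc, at 182, 167 and 194 CPM in Myc and at 176, 206, 189, 120 and 201 CPM in wildtype. Pdia6, an isomerase that also binds IRE1, was at 268, 271, 277 and 294 CPM in Grhl2KO_Myc, against 259, 292, 280, 210 and 310 CPM in wildtype. Ero1l lay between 51 and 60.3 CPM in all 12 libraries. The log2 fold changes of these 5 genes ran from 0.003 to 0.1. By edgeR 0 were called and 0 had an unadjusted p under 0.05, against 6.67% and 22% of all genes.

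Among the sensors and transcription factors, Xbp1 (ENSMUSG00000020484.18, chromosome 11, 5520659 to 5525893, plus strand, mm10) was at 137, 130, 120 and 131 CPM in Grhl2KO_Myc, at 114, 106 and 113 CPM in Myc and at 114, 123, 121, 99.8 and 111 CPM in wildtype. Grhl2KO_Myc 3 lay below wildtype 2 and 3, so the groups overlapped (log2 fold change 0.18, SE 0.063, edgeR adjusted p = 0.103). The count of Xbp1 does not separate spliced from unspliced messenger RNA, so it does not measure the activity of IRE1. Atf6 was at 41.8, 43.8, 42.4 and 41.1 CPM in Grhl2KO_Myc, at 43.4, 48.8 and 42.7 CPM in Myc and at 46.1, 44.7, 46, 36.4 and 44.3 CPM in wildtype. Its log2 fold change was -0.042 (SE 0.07, edgeR adjusted p = 0.772), with wildtype 4 below all others. Ern1, the IRE1 gene, was at 23.2, 22.1, 24.7 and 20.2 CPM in Grhl2KO_Myc, at 21.2, 25.4 and 24.1 CPM in Myc and at 28.4, 22.7, 21.6, 20.5 and 24.9 CPM in wildtype. No separation of the groups was seen for it (-0.068, SE 0.098, edgeR adjusted p = 0.735). Atf6b, a relative of Atf6, lay between 70.3 and 81.8 CPM in Grhl2KO_Myc and between 62.9 and 74.8 CPM in wildtype.

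Genes of ER-associated degradation move misfolded proteins back to the cytosol for the proteasome. Herpud1, a membrane adaptor of the ubiquitin ligase that PERK and ATF6 signalling induce, was at 64.2, 77.6, 45 and 47.3 CPM in Grhl2KO_Myc, at 55.9, 54.6 and 61.4 CPM in Myc and at 57.3, 62.2, 85.3, 83 and 60.9 CPM in wildtype. The libraries fell apart within groups, with Grhl2KO_Myc 3 and 4 lowest of all 12 and wildtype 3 and 4 highest (log2 fold change -0.25, SE 0.17, edgeR adjusted p = 0.409). Without Grhl2KO_Myc 3 it was -0.15, without Grhl2KO_Myc 4 -0.16 and without Grhl2KO_Myc 2 -0.42. Without the 3 libraries low in proximal tubule markers it was 0.09 (edgeR adjusted p = 0.748). Sel1l, the scaffold of the HRD1 ligase, was at 106, 112, 109 and 110 CPM in Grhl2KO_Myc, at 109, 121 and 111 CPM in Myc and at 123, 122, 128, 109 and 122 CPM in wildtype. All 4 Grhl2KO_Myc libraries lay below 4 of the 5 wildtype libraries, and wildtype 4 alone overlapped them.

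Syvn1, which encodes the HRD1 ligase, was at 62.9, 61.6, 63 and 68 CPM in Grhl2KO_Myc, at 56.4, 54.6 and 62.5 CPM in Myc and at 62.7, 59.1, 59.1, 55.3 and 58.5 CPM in wildtype. Edem1, Edem2 and Edem3 encode proteins that mark glycoproteins for degradation by trimming mannose. Edem3 was at 60.2, 54.3, 56.4 and 54.6 CPM in Grhl2KO_Myc, at 55, 64.7 and 58.1 CPM in Myc and at 60, 66.6, 67.1, 53.6 and 66.8 CPM in wildtype, where wildtype 4 was again lowest. Edem1 lay between 47.6 and 49.4 CPM in Grhl2KO_Myc and between 49.1 and 54.2 CPM in wildtype, and Edem2 between 27.9 and 32.4 CPM in all 12 libraries. The derlins form the channel of the pathway, and Derl1 and Derl2 varied over the 12 libraries by no more than 1.13-fold and 1.11-fold, although exons of Derl2 overlap those of Mis12 by 231 bases. Derl3 was at 1.23 to 1.7 CPM in Grhl2KO_Myc and at 1.09 to 1.52 CPM in wildtype. Of the 9 degradation genes 0 were called by edgeR, against 6.67% of all genes. At an unadjusted p under 0.05 there were 1 higher and 2 lower (33.3%), against 22% of all genes. Selenos, counted as Vimp, encodes a membrane selenoprotein of this pathway and was at 36.3, 36.9, 35.4 and 37.3 CPM in Grhl2KO_Myc, at 32.1, 33.2 and 31.7 CPM in Myc and at 30.8, 35.4, 36.6, 43.9 and 32 CPM in wildtype. Its log2 fold change over wildtype was 0.028 (edgeR adjusted p = 0.884), and its highest library was wildtype 4.

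The translocon is the channel through which new proteins enter the ER, and Sec61a1 and Sec61b encode subunits of it. Sec61b was at 48.4, 49.3, 57.5 and 59.8 CPM in Grhl2KO_Myc, at 45.4, 46.2 and 51.1 CPM in Myc and at 44.2, 44, 39.6, 50.8 and 45.7 CPM in wildtype. Here wildtype 4 was the highest wildtype library, and it alone overlapped Grhl2KO_Myc. Sec61a1 was at 208, 222, 235 and 246 CPM in Grhl2KO_Myc, at 209, 206 and 220 CPM in Myc and at 213, 209, 203, 212 and 212 CPM in wildtype. Its exons overlap those of Gm44170 on the other strand by 549 bases. The log2 fold changes over wildtype were 0.26 for Sec61b (edgeR adjusted p = 0.0778) and 0.12 for Sec61a1 (0.197).

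**Figure D3:**
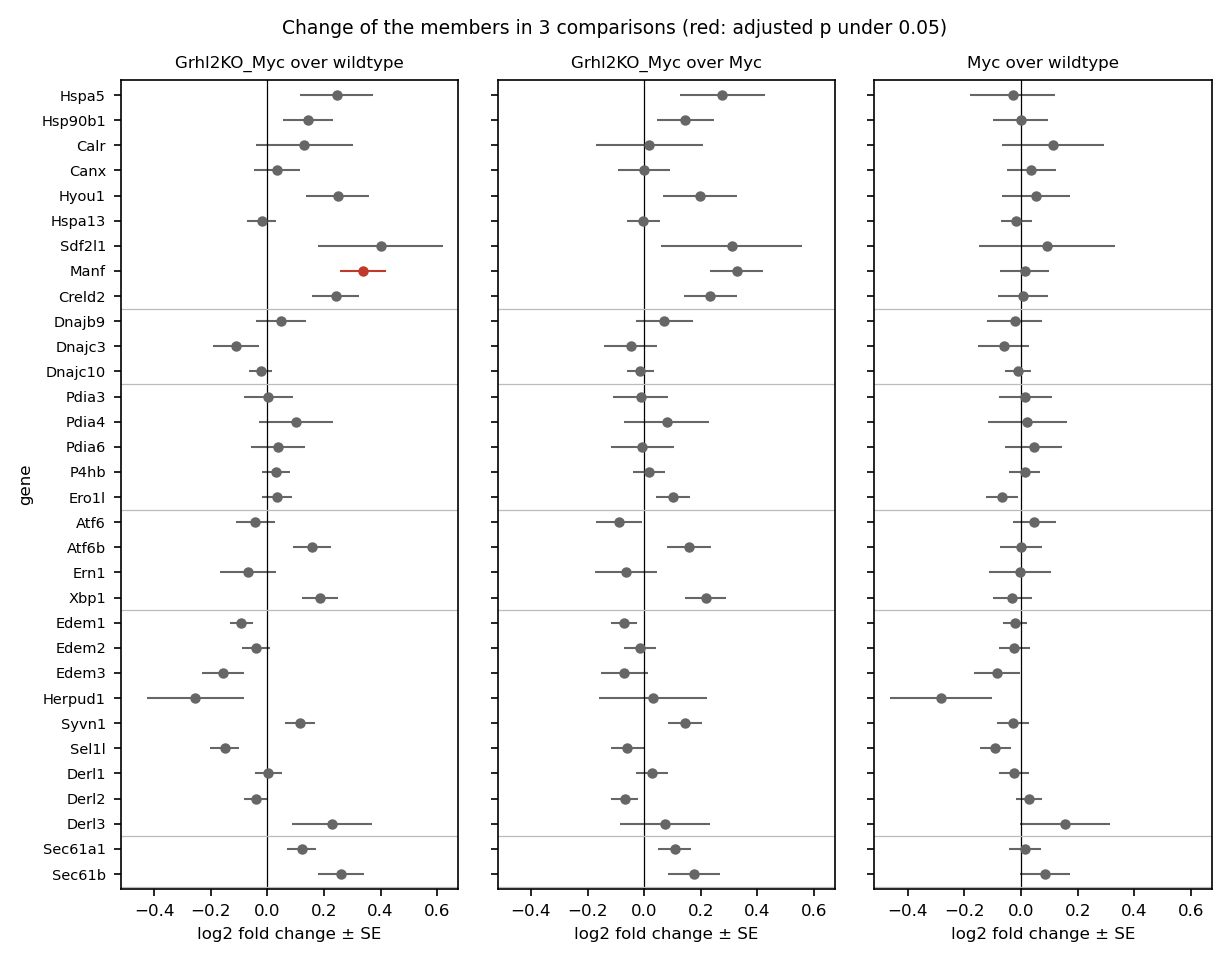
Log2 fold change (horizontal axes) with its standard error for the 32 members in the 3 comparisons, in the order of roles used in the heatmap, with calls at an edgeR adjusted p under 0.05 in red. Manf over wildtype, at 0.34, is the 1 call, and the values of Myc over wildtype run from -0.28 to 0.16.

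Wildtype 4 stood below the other libraries for many members, although the call of Manf held without it (edgeR adjusted p = 0.0192). That library was the lowest of the 12 for 18 of the 32 members, or 56.2%, while it was the lowest for 18.6% of all genes tested. It was the highest of the 12 for 0 members and for 18% of all genes. By role these were 8 of 9 luminal chaperones, 4 of 5 disulfide exchange enzymes, 3 of 4 sensors and transcription factors, 1 of 3 J proteins, 2 of 9 degradation genes and 0 of 2 translocon genes. Of 37 other ER folding enzymes and lectins, which are not members, wildtype 4 was the lowest library for 14 (37.8%). Relative to the mean of the other 4 wildtype libraries, Sdf2l1 stood at 46.8% in wildtype 4, Calr at 50.4%, Pdia4 at 61.9%, Hspa5 at 62.2%, Hyou1 at 66.8% and Pdia6 at 73.4%. Herpud1, at 125%, Sec61b, at 117%, and Selenos counted as Vimp, at 130%, went the other way. The remaining luminal chaperones stood at 75.5% (Hsp90b1), 77% (Canx), 84.3% (Manf), 87.2% (Creld2) and 94.4% (Hspa13) of the mean of the other wildtype libraries. Manf was at 44.4 CPM in wildtype 4 and 45.2 CPM in wildtype 1, and Creld2 at 28.3 and 29.7 CPM in the same libraries. At the other end, Grhl2KO_Myc 4 was the highest library for 10 of the 32 members, or 31.2%, and for 10.7% of all genes.

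Wildtype 4 shared its low proximal tubule markers with Grhl2KO_Myc 3 and Grhl2KO_Myc 4, which are of another genotype. Hspa5 was at 610 and 689 CPM in Grhl2KO_Myc 3 and 4 and at 369 CPM in wildtype 4. Hyou1 was at 168 and 186 CPM in the same Grhl2KO_Myc libraries and at 100 CPM in wildtype 4. Within Grhl2KO_Myc, library 3 was the lowest for Hspa5, Calr, Manf and Creld2, and library 4 the highest for Hspa5, Hyou1 and Manf. Atf4, a transcription factor gene of the integrated stress response that is controlled mostly through translation, was at 155 CPM in wildtype 4 and at 100 to 107 CPM in the other wildtype libraries. The part of the proximal tubule level in the values of wildtype 4 was not tested, and genotype differs between these libraries.

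Without wildtype 4, 4 of the 32 members were called, when 15.9% of all genes were. Manf (log2 fold change 0.29, edgeR adjusted p = 0.0192) and Sec61b (0.31, edgeR adjusted p = 0.0178) were higher in Grhl2KO_Myc. Sel1l (-0.18, edgeR adjusted p = 0.0121) and Edem3 (-0.21, edgeR adjusted p = 0.0345) were lower. The median of the 32 members was then -0.014, with 15 above 0. Without all 3 libraries low in proximal tubule markers, Sel1l was the 1 member called (-0.19, edgeR adjusted p = 0.0482), when 9.48% of all genes were. With the proximal tubule level as a term in the fit, scored from the 20 markers, 4 members were called and all were higher in Grhl2KO_Myc, namely Hspa5 (0.43, edgeR adjusted p = 0.0224), Manf (0.41, 0.00541), Xbp1 (0.25, 0.00957) and Creld2 (0.32, 0.0125), when 9.82% of all genes were.

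The members with an ERSE were set beside those without it. In wildtype 4 the 9 members with the element stood at 50.4% to 92.4% of the mean of the other wildtype libraries, with a median of 77%. The 17 measured members with a window but no element stood at 46.8% to 125%, with a median of 91.6%, and the 6 without a window at 66.8% to 101%, with a median of 89.1%. Wildtype 4 was the lowest library for 7, 8 and 3 of them. The ranges overlap widely, and Sdf2l1, the member lowest in wildtype 4, has no exact match in its window. In Grhl2KO_Myc over wildtype the median log2 fold change was 0.13 for the members with the element, 0.003 for those without it and 0.062 for those with no window, and 0, 0 and 1 were called.

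**Figure D4:**
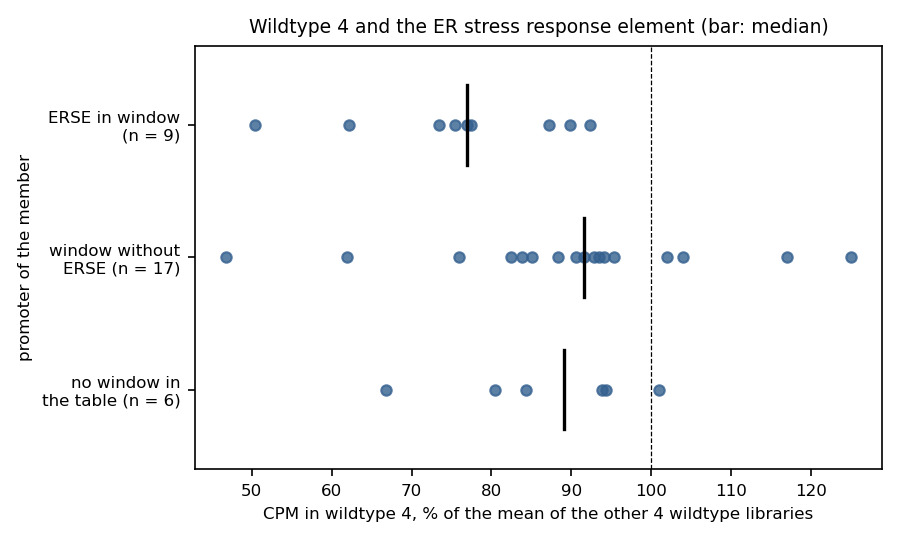
CPM in wildtype 4 as a percent of the mean of the other 4 wildtype libraries (horizontal axis) for the 32 members, split by whether the promoter window holds the ER stress response element; black bars are medians, at 77%, 91.6% and 89.1%, and the dashed line marks equality. All 9 members with the element lie left of that line, and so do most members of the other groups, which lie on either side. Herpud1, at 125%, has an ERSE-II and is drawn among the members without the element.

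Against Myc kidneys, the labels give the knockout as the difference. This comparison shares the Grhl2KO_Myc libraries with the one above. Of the 32 members 0 were called by edgeR, where 0.842% of all genes were (0.358% higher and 0.484% lower), 4 had an unadjusted p under 0.05 (all higher, against 13.3% of all genes), DESeq2 called 1 and limma-voom called 0. All Grhl2KO_Myc libraries lay above all Myc libraries for 5 of the 32 members, Hspa5, Hsp90b1, Hyou1, Manf and Xbp1, and below for 0, where 16.8% of all genes did not overlap, 8.95% above and 7.89% below. Manf had the highest log2 fold change of the 32, at 64.5 ± 3.93 CPM in Grhl2KO_Myc and 51.4 ± 3.14 CPM in Myc (SD, n = 4 and 3), and its log2 fold change was 0.33 with an SE of 0.092 (edgeR adjusted p = 0.14). For Xbp1 the means were 129 ± 6.92 CPM in Grhl2KO_Myc and 111 ± 4.36 CPM in Myc (log2 fold change 0.22, SE 0.072, edgeR adjusted p = 0.21). Hspa5 averaged 651 ± 32.9 CPM in Grhl2KO_Myc and 538 ± 37 CPM in Myc, and its log2 fold change was 0.28 with an SE of 0.15 (edgeR adjusted p = 0.478).

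All 12 libraries, wildtype 4 among them, enter the estimate of spread used here. With wildtype 4 left out, 1 member was called, Manf (0.33, edgeR adjusted p = 0.0495), when 2.96% of all genes were. In the fit of all 12 libraries, Hsp90b1 was at 0.14 (SE 0.1, edgeR adjusted p = 0.566) and Atf6 at -0.089 (SE 0.08, edgeR adjusted p = 0.666). In the same fit, Ern1 was at -0.065 (SE 0.11, edgeR adjusted p = 0.835) and Herpud1 at 0.03 (SE 0.19, edgeR adjusted p = 0.963). With all 12 libraries the median of the 32 members was 0.029 and that of all genes 0.0023. For the 9 luminal chaperones the median was then 0.2 with 7 above 0.

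Between Myc and wildtype kidneys, where the labels give the overexpression as the difference, the members lay close together. The wildtype libraries are those of the first comparison. Of the 32 members 0 were called by edgeR, where 0.00421% of all genes were, 0 had an unadjusted p under 0.05, against 4.62% of all genes, and DESeq2 and limma-voom called 0. For 0 of the 32 did the libraries of the groups separate, where 3.57% of all genes did, 2.22% above and 1.34% below. The median log2 fold change was -0.0018 for the members and 0.00014 for all genes. Without wildtype 4 these medians were -0.04 and -0.0033, and 0 members and 0% of all genes were called by edgeR. Hspa5 averaged 538 ± 37 CPM in Myc and 549 ± 114 CPM in wildtype (SD, n = 3 and 5; log2 fold change -0.03, SE 0.15, edgeR adjusted p = 0.999), and Xbp1 111 ± 4.36 CPM in Myc and 114 ± 9.25 CPM in wildtype (-0.032, SE 0.069, edgeR adjusted p = 0.999). Without wildtype 4 the wildtype mean was 594 CPM for Hspa5 and 117 CPM for Xbp1. With all 12 libraries Herpud1 had the value farthest from 0, at 57.3 ± 3.59 CPM in Myc and 69.7 ± 13.3 CPM in wildtype (-0.28, SE 0.18, edgeR adjusted p = 0.999). Hsp90b1 was at -0.0019 (SE 0.096), Atf6 at 0.047 (SE 0.076) and Ern1 at -0.0033 (SE 0.11), each with an edgeR adjusted p = 0.999.

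Lists of genes that work beside the members were examined in Grhl2KO_Myc over wildtype, and the background share of calls is again 6.67%. At an unadjusted p under 0.05 that share is 22%. These lists, like the members, were chosen with earlier results of these data known. Chaperones of the cytosol and mitochondria, which fold proteins outside the ER, had 16 of 31 genes called higher and 0 lower (51.6%), with a median log2 fold change of 0.24. The 16 include all 8 subunits of the CCT ring (Cct2, Cct3, Cct4, Cct5, Cct6a, Cct7, Cct8 and Tcp1), which folds actin and tubulin. Hspd1, the mitochondrial Hsp60, was at 448, 405, 428 and 471 CPM in Grhl2KO_Myc and at 293, 325, 340, 293 and 341 CPM in wildtype (log2 fold change 0.46, SE 0.071, edgeR adjusted p = 0.0028). Cct3 was at 243, 244, 266 and 284 CPM in Grhl2KO_Myc and at 181, 192, 193, 211 and 199 CPM in wildtype (0.41, SE 0.063, edgeR adjusted p = 0.0028). Ahsa1, an activator of cytosolic Hsp90, averaged 83.1 ± 5.36 CPM in Grhl2KO_Myc and 68 ± 1.18 CPM in wildtype (0.29, SE 0.046, edgeR adjusted p = 0.0031). For these 3 genes every Grhl2KO_Myc library was above every wildtype library.

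Of the 31 genes 6 lay below 0. Hspa1a, an inducible Hsp70, averaged 40.9 ± 9.61 CPM in Grhl2KO_Myc and 54.2 ± 6.48 CPM in wildtype (log2 fold change -0.41, edgeR adjusted p = 0.0884), and Hspa1b 55.9 ± 12.1 CPM in Grhl2KO_Myc and 73.8 ± 10.5 CPM in wildtype (-0.4, edgeR adjusted p = 0.0946). These near-identical genes can share reads, and they were named after their values were seen. The count of 16 was 8 without Grhl2KO_Myc 3 or Grhl2KO_Myc 4, 9 without wildtype 2 or wildtype 3 and 10 without wildtype 1. Without wildtype 4 it was 17 higher and 3 lower, and without the 3 libraries low in proximal tubule markers 15 higher and 0 lower. Over Myc, 0 of the 31 were called by edgeR, where 0.842% of all genes were, DESeq2 called 6 higher and limma-voom called 0. At an unadjusted p under 0.05 there were 21 (67.7%), 19 higher and 2 lower, against 13.3% of all genes.

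The PERK arm and the integrated stress response had 3 of 19 tested genes higher and 1 lower (21.1%). Without wildtype 4 there were 6 higher and 2 lower (42.1%), when 15.9% of all genes were called. Asns, the asparagine synthetase gene that ATF4 induces, was at 15.3, 18, 18.9 and 16.4 CPM in Grhl2KO_Myc, at 8.98, 11.4 and 14.7 CPM in Myc and at 8.47, 8.9, 9.12, 11.4 and 9.26 CPM in wildtype. Grhl2KO_Myc libraries of Asns lay above all others, 1.82-fold over wildtype (log2 fold change 0.86, SE 0.13, edgeR adjusted p = 0.0027). Stc2, a secreted glycoprotein gene of the response, averaged 12.3 ± 0.601 CPM in Grhl2KO_Myc and 9.26 ± 0.719 CPM in wildtype (0.41, edgeR adjusted p = 0.0262). The call of Stc2 was lost without Grhl2KO_Myc 1 (edgeR adjusted p = 0.0552), Grhl2KO_Myc 3 (0.0801), Grhl2KO_Myc 4 (0.0569), wildtype 1 (0.0643) or wildtype 3 (0.0651). Vldlr, a lipoprotein receptor gene, fell to 92.5 ± 6.19 CPM in Grhl2KO_Myc, against 126 ± 6.85 CPM in wildtype (-0.45, SE 0.056, edgeR adjusted p = 0.000783). Atf4 averaged 118 ± 2.47 CPM in Grhl2KO_Myc and 114 ± 23.2 CPM in wildtype (edgeR adjusted p = 0.82), and Ddit3, the CHOP gene of ER stress, 8.85 ± 0.658 CPM in Grhl2KO_Myc and 8.25 ± 1.03 CPM in wildtype (edgeR adjusted p = 0.592).

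Other parts of the ER held few calls. Of 37 other folding enzymes and lectins 0 were called by edgeR (7 at an unadjusted p under 0.05, all higher), of 28 other degradation genes 0 (1 higher and 3 lower unadjusted) and of 20 genes of COPII and ER exit 0 (2 higher and 1 lower unadjusted). Without wildtype 4 the first of these lists had 2 higher and 1 lower, the second 1 higher and 1 lower and the third 0. Of 35 genes of translocation, signal peptide cleavage and N-glycan transfer 2 were higher, and 3 without wildtype 4. Ssr4, of the translocon-associated complex, averaged 61.6 ± 1.49 CPM in Grhl2KO_Myc and 52.9 ± 1.81 CPM in wildtype (log2 fold change 0.22, SE 0.051, edgeR adjusted p = 0.0241). Srprb, a subunit of the signal recognition particle receptor, averaged 57.9 ± 4.67 CPM in Grhl2KO_Myc and 50.7 ± 1.23 CPM in wildtype, a call at the edge of the threshold. The call of Ssr4 was lost without Grhl2KO_Myc 1, 3 or 4 or without wildtype 1, 2 or 3 (edgeR adjusted p up to 0.0662). That of Srprb was lost without any library except Grhl2KO_Myc 2 and wildtype 4 (up to 0.142).

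Of 17 genes that process ATF6, splice Xbp1 or belong with them, 1 was higher and 1 lower (11.8%), and without wildtype 4 there were 3 higher and 3 lower (35.3%). Bhlha15, known as Mist1, a secretory cell transcription factor gene and target of XBP1, was at 1.96, 2.19, 2.12 and 2.3 CPM in Grhl2KO_Myc, at 1.54, 3.25 and 3.33 CPM in Myc and at 1.08, 0.767, 0.995, 1.25 and 0.871 CPM in wildtype. Both Grhl2KO_Myc and Myc libraries lay above every wildtype library. The log2 fold change was 1.11 (SE 0.22, edgeR adjusted p = 0.0106) for Grhl2KO_Myc over wildtype and 1.45 (SE 0.23, edgeR adjusted p = 0.16) for Myc over wildtype. Wfs1, the gene of wolframin, an ER membrane protein, averaged 26.4 ± 0.707 CPM in Grhl2KO_Myc and 34.5 ± 5.51 CPM in wildtype (-0.39, SE 0.1, edgeR adjusted p = 0.0395). Wildtype 4, at 26.6 CPM, overlapped Grhl2KO_Myc, and the call of Wfs1 was lost without any library except wildtype 3 and wildtype 4 (edgeR adjusted p up to 0.0894). Over Myc, 0 genes of these ER and stress lists were called by edgeR, where 0.842% of all genes were. At an unadjusted p under 0.05 there were 9 of the 19 stress response genes (47.4%), against 13.3% of all genes. No other of these lists had more than 2.

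**Figure D5:**
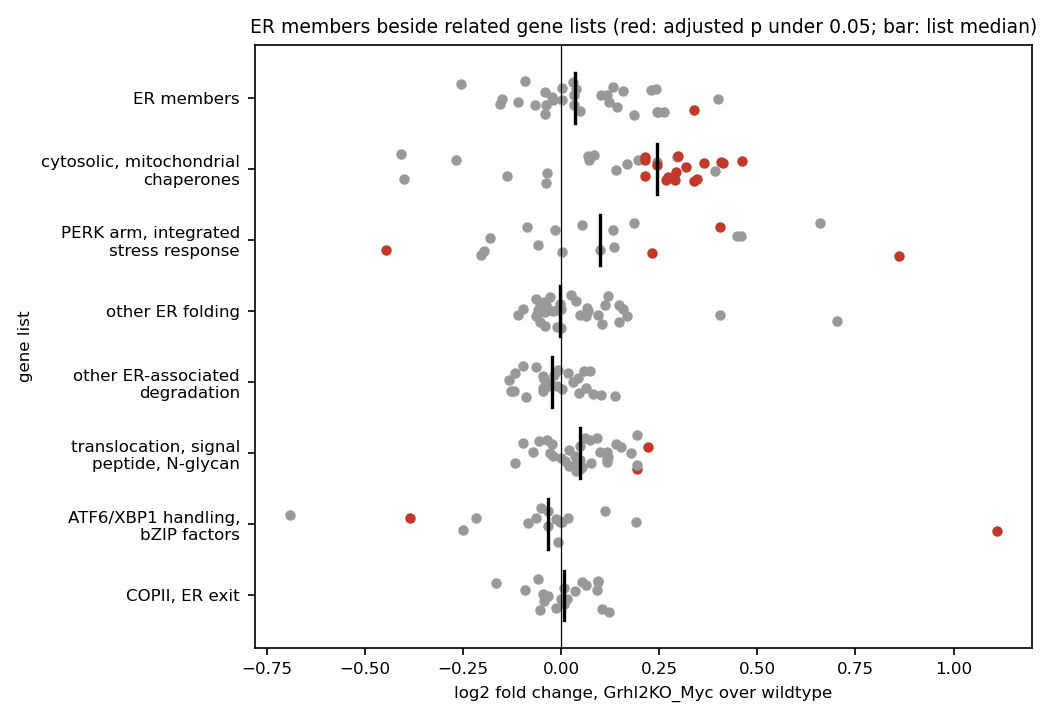
Log2 fold change of Grhl2KO_Myc over wildtype (horizontal axis) for each tested gene of the 32 ER members and of 7 related lists; red marks an edgeR adjusted p under 0.05, grey no call, and the black bar is the median of the list. The cytosolic and mitochondrial chaperones hold 16 calls around a median of 0.24, and the members 1 call around 0.036.

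Markers of cells rich in ER were compared beside these values. The 13 plasma cell and B cell markers summed to 9.96 to 11.8 CPM in Grhl2KO_Myc, 8.61 to 9.51 CPM in Myc and 7.98 to 9.88 CPM in wildtype, and Igha was at 0 in all libraries. Of that sum Ighm made up 4.4 to 5.37 CPM in Grhl2KO_Myc, 2.73 to 2.88 CPM in Myc and 0.666 to 3.42 CPM in wildtype. Without Ighm, a choice made after its values were seen, the other 12 markers summed to 5.56 to 6.41 CPM in Grhl2KO_Myc, 5.72 to 6.74 CPM in Myc and 6.46 to 7.32 CPM in wildtype, so Grhl2KO_Myc lay above wildtype with Ighm and below it without. Of the 9 tested markers 0 were called by edgeR over wildtype, with 4 above 0 and 5 below. At an unadjusted p under 0.05 there were 2 (22.2%), against 22% of all genes. The 20 proximal tubule markers summed to 1690 to 4230 CPM in Grhl2KO_Myc, 3870 to 5140 CPM in Myc and 1530 to 5990 CPM in wildtype. The 12 principal cell markers, of the cells in which HoxB7-Cre is active, summed to 1080 to 1230 CPM in Grhl2KO_Myc, 1150 to 1310 CPM in Myc and 1020 to 1320 CPM in wildtype. Although these sums overlapped, 3 of the 12 were called lower in Grhl2KO_Myc than wildtype (25%), where 2.61% of all genes were. They were Elf5 at 5.75 ± 0.85 CPM against 21.5 ± 1.41 CPM, Avpr2 at 7.45 ± 1.3 CPM against 14.2 ± 0.242 CPM and Aqp4 at 15.2 ± 4.78 CPM against 37.1 ± 5.33 CPM. While 0 of the 12 were called higher, 6 lay above 0 and 6 below (median log2 fold change 0.0097). At an unadjusted p under 0.05 there were 4 higher and 4 lower (66.7%, against 22% of all genes). The 10 intercalated cell markers summed to 246 to 301 CPM in Grhl2KO_Myc, 387 to 445 CPM in Myc and 196 to 363 CPM in wildtype. Of these 1 was called higher and 1 lower over wildtype, and 2 lower over Myc. The 10 endothelial markers summed to 879 to 927 CPM in Grhl2KO_Myc, 888 to 955 CPM in Myc and 958 to 1100 CPM in wildtype, with 3 called lower over wildtype. The 8 podocyte markers summed to 1020 to 1090 CPM in Grhl2KO_Myc, 1050 to 1280 CPM in Myc and 1280 to 1340 CPM in wildtype, with 3 called lower over wildtype. The part of these cell types in the values of the members was not tested.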

How the data were processed

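Gene by gene raw counts, whole numbers without normalization, stand in 1 table the authors deposited, with the exon width of each gene. Reads were aligned with HISAT2 to mm10, per the submitters' processing notes, while the sources used here do not name the counting program, the annotation or the treatment of reads with several matches. Per the labels' protocols, RNA was column-purified with DNase digestion and libraries were made with the TruSeq RNA kit, version 2.

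Groups follow the genotype label. The members and gene lists were chosen with earlier results of these data known. All 12 libraries of deposited counts entered 1 fit with edgeR 4.0.16 in R 4.3.3 (TMM scaling, default expression filter, quasi-likelihood F test, 1 coefficient per group, Benjamini-Hochberg adjustment over 23742 genes). The step was first tested on simulated data, with planted changes larger than any fold change of the members here. That test therefore does not cover changes of the members' size. CPM of a gene are relative to TMM-scaled totals, and levels between genes were compared per kilobase of the deposited exon width. Members called in a comparison, and Hspa5, Hsp90b1, Xbp1, Atf6, Ern1 and Herpud1 in each, were named by rule, as were up to 3 called genes with the smallest p of each related list, and other genes given with a p were named after their values were seen. The proximal tubule score is the mean log2 CPM (prior count 2) of 20 markers relative to the 12 libraries. Coordinates come from GENCODE M21 and promoter windows from RefSeq, matched by symbol for 27 of 33 members. The smallest chi-square per degree of freedom between libraries of a group was 13.5, more than sampling noise gives, and no library was merged with another. The alternatives tried were DESeq2 1.42.0, limma-voom (limma 3.58.1), RLE scaling, upper-quartile scaling, a filter at 1 CPM in at least 3 libraries, no filter other than 1 count, the compared groups only, a replicate block, a term for Ddx3y above 10 CPM, the proximal tubule score as covariate, the 3 libraries low in that score left out, and each library left out. Those for the related lists were added after their values were seen.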

Additional observations from a re-analysis of the deposited data

Results flagged for a closer look

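A single library stood apart from the rest of its group in 5 of 66 combinations of a member and a group of 4 or 5 libraries, by Dixon's criterion at the 95% level, where chance flags about 1 in 20. Calr was at 569 CPM in Grhl2KO_Myc 3, with the next library of that group at 615 CPM. In wildtype 4 it was at 309 CPM, with the next wildtype library at 554 CPM. Canx in wildtype 4 was at 340 CPM, with the next wildtype library at 428 CPM. Hyou1 in wildtype 4 was at 100 CPM, with the next at 142 CPM, and Atf6 in wildtype 4 was at 36.4 CPM, with the next at 44.3 CPM. In 4 of the 5 the library was wildtype 4, and the cause was not tested.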

How the results depend on the processing

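The count of members higher in Grhl2KO_Myc than wildtype, 1 as reported, was 2 with DESeq2, 4 with the proximal tubule score as covariate and 0 in the fit of only the groups compared, with a replicate block, with a term for Ddx3y or without the 3 libraries low in proximal tubule markers, and it lay between 0 and 2 with single libraries left out. The count lower, 0 as reported, was 1 with DESeq2, 1 without those 3 libraries and 0 to 2 with single libraries left out. Over Myc the count higher, 0 as reported, was 1 with DESeq2, 2 with the covariate (Manf and Xbp1) and 0 to 1 with single libraries left out. The count of cytosolic and mitochondrial chaperones higher over wildtype, 16 as reported, was 8 to 17 with single libraries left out. The cause of these shifts was not tested.

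Of all genes, 1584 were called over wildtype, 3778 without wildtype 4, 2703 with DESeq2, 1046 without Grhl2KO_Myc 1, 832 without Grhl2KO_Myc 3, 750 without Grhl2KO_Myc 4, 935, 894 and 885 without wildtype 1, 2 and 3, 998 with the Ddx3y term and 995 with only the groups compared. Over Myc 200 were called, 777 with DESeq2 and 703 without wildtype 4. Same-numbered libraries showed no strong shared deviation (correlations -0.11 to 0.23), a check that cannot exclude a weak pairing. The main fit did not pair them. The replicate block left 993 genes called over wildtype, with Manf at 0.36 (edgeR adjusted p = 0.0722). The Manf call was also lost with only the groups compared (0.0525), the Ddx3y term (0.0563) and the 3 libraries left out (0.0651).

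Small uncalled values changed sign. Over wildtype, Atf6 in Grhl2KO_Myc was 0.023 with the covariate and Herpud1 0.0895 without the 3 libraries, and over Myc Herpud1 was -0.015 with limma-voom. In Myc over wildtype, Hsp90b1 was 0.0055 with no filter and 0.0063 with limma-voom, Ern1 0.0046 and 0.011, and Atf6 -0.012 without the 3 libraries. With single libraries left out, Ern1 in Grhl2KO_Myc over wildtype lay between -0.12 and 0.0068 and Herpud1 over Myc between -0.14 and 0.14. In Myc over wildtype the ranges were -0.14 to 0.028 for Hspa5, -0.074 to 0.033 for Hsp90b1, -0.076 to 0.00028 for Xbp1, -0.015 to 0.084 for Atf6 and -0.0604 to 0.0715 for Ern1.

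Depth did not limit the members except Derl3, with 65 to 167 counts. The groups of 3 to 5 libraries and the spread within wildtype limit what the tests can detect, and splicing of Xbp1, processing of ATF6 and protein levels were not measured.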
